A study of Mus musculus with 4 samples.

Results

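The 10 genes described here are the tissue kallikrein Klk1 and 9 of its close relatives, Klk1b1, Klk1b4, Klk1b5, Klk1b8, Klk1b11, Klk1b16, Klk1b21, Klk1b22 and Klk1b26. They were taken by symbol from the 31053 genes listed in the count matrices, and all 10 were found in every library. The libraries are single-cell RNA sequencing on the 10x platform of cells from the submandibular gland, a major salivary gland, of female C57BL6/J mice, enriched for stroma by bead removal of EpCAM-bearing (epithelial) and Ter119-bearing (red) cells. In the 2 deligated libraries a metal clip had closed the main ducts for 14 days and had then been off for 5 days, and the mice were 14 weeks old. The 2 homeostatic libraries came from 12-week-old mice that had no surgery. The protocol text speaks of a pair of glands and names the sublingual gland as well as the submandibular gland. It does not say whether each library pools animals or whether replicates are separate animals. The p-values therefore measure at most the spread between these libraries. Age and the software version in the matrix headers differed along with the surgery and cannot be told apart from it.

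Tissue kallikreins are secreted serine proteases. Klk1 cuts kininogen to release kinins, peptides that widen and permeabilise vessels through the bradykinin receptors, and it is made in the ducts of salivary gland, kidney and pancreas. In the mouse the locus has expanded into a cluster of near-copies, many of which are stored in the secretory granules of the granular convoluted ducts of the submandibular gland, beside epidermal growth factor (Egf) and, in some strains, renin. These ducts are androgen-dependent and more developed in males than in the females studied here. Several relatives were first described as processing or binding partners of such products: Klk1b22 is an epidermal growth factor-binding protein, Klk1b16 gamma-renin and Klk1b26 a prorenin-converting enzyme.

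All 10 genes lie on the plus strand of chromosome 7 (GRCm38, GENCODE M21), between 43950664 and 44229618, a span of 279 kb, and each has 5 exons. Klk1 is at 44225360 to 44229618 (ENSMUSG00000063903) and Klk1b26 at 44012168 to 44016968 (ENSMUSG00000053719). Between pairs of members the coding sequences were 79.64% to 95.17% identical over 45 pairs, and Klk1b5 was the closest to Klk1. The last 60 coding bases, stop codon included, are shown because the relative counts below depend on telling the genes apart near their transcript ends. They are given for Klk1, its closest relative, the next most abundant member and a pair with the same bases there. Capitals mark bases that differ from Klk1, and the sequences were read from GENCODE transcripts.
Klk1: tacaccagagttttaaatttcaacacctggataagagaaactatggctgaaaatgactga
Klk1b5: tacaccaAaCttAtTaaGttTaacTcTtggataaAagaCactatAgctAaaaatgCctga
Klk1b26: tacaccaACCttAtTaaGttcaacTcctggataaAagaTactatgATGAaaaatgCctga
Klk1b21: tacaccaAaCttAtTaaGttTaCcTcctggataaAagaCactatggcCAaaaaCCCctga
Klk1b22: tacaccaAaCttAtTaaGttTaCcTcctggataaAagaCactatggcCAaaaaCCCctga

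In coordinates, these ends are chr7:44229510-44229569 for Klk1, chr7:44220595-44220654 for Klk1b5, chr7:44016861-44016920 for Klk1b26, chr7:44106475-44106534 for Klk1b21 and chr7:44116817-44116876 for Klk1b22. Klk1b5 differs from Klk1 at 13 of the 60 bases and Klk1b26 at 14. Klk1b21 and Klk1b22 are identical over the stretch and differ from Klk1 at 15 bases. In the last 500 bases of the transcripts, words of 90 bases were unique to their gene for 7 members, whereas 86.37% of the words were unique for Klk1 and Klk1b5, which share the rest with each other. For Klk1b21 the unique share was 89.29%, with the rest shared with Klk1b24 and Klk1b27. With words of 50 bases no member was fully unique: the share was 64.3% for Klk1b21, 69.4% for Klk1, 76.05% for Klk1b5, 79.6% for Klk1b22 and 85.81% to 94.46% for the others. Klk1b1 and Klk1b8 overlap Gm44756 on the other strand, and whether the counting used strand is not given in the sources used here. The library chemistry is not stated in the labels either. The read length is not given there, so the counts of all 10 members, and most of all those of Klk1b5 beside abundant Klk1 and of Klk1b21, are uncertain to the extent that reads could be assigned to a near-copy.

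Depth was counted in UMIs (unique molecular identifiers, which mark captured RNA molecules). Library totals were 35662241 and 53898793 UMIs for the deligated pair, spread over 4725 and 8713 barcodes. For the homeostatic pair they were 53633980 and 52379402 UMIs over 12854 and 13266 barcodes. After filters, 33695 cells fell into 38 clusters. Library pairs shared between 14 and 54 barcodes, and of the duct-like cells described next 0 and 1 deligated and 23 and 39 homeostatic cells carried a shared barcode.

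Duct-like cells were found in 4 clusters that were formed without any kallikrein gene and named from other duct markers such as Fxyd2, Krt7, Tfcp2l1 and Ehf. They numbered 28 and 141 in the deligated libraries and 3200 and 3471 in the homeostatic libraries. Their share of retained cells was 0.643% (95% Clopper-Pearson interval 0.427% to 0.927%) and 1.80% (1.52% to 2.12%) in the deligated libraries, against 30.1% (29.3% to 31.0%) and 31.8% (31.0% to 32.7%) in the homeostatic libraries. EpCAM-bearing cells were the target of the bead removal, which can set these shares. The duct-like cells were shallow, with median UMI counts of 766 and 933 in the deligated and 949.5 and 934 in the homeostatic libraries. Mitochondrial genes had a median of 0.0% and 0.111% of their UMIs in the deligated and 0.0698% and 0.0831% in the homeostatic libraries, while the other cells had medians between 2.21% and 3.02%. Intervals here and below cover counting error only.

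Granular duct identity was looked up in the stored products Egf and Ren1 (renin), and these did not settle the name. Egf had 1 UMI in each deligated library and 110 and 92 UMIs in the homeostatic libraries over all duct-like cells, or 27.7 and 21.9 CPM (a gene's UMIs scaled to the total UMIs of the same cells, the usual unit of depth-scaled counts) in the latter. Ren1 had 0 UMIs in both deligated libraries and 2 and 0 in the homeostatic libraries. Neither Egf nor Ren1 passed the marker rule in any of the 4 clusters. The cells are therefore called duct-like only.

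Klk1 was the most abundant member in duct-like cells of every library. It stood at 74864 and 53504 CPM in the deligated libraries and at 40013 and 43014 CPM in the homeostatic libraries, that is 7.49%, 5.35%, 4.00% and 4.30% of all UMIs of these cells. Both deligated libraries lay above both homeostatic libraries for Klk1. In single cells the median was 19.5 and 16 Klk1 UMIs in the deligated and 14 in each homeostatic library. The other 9 members came below it in every library.

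Klk1b26 was the second member, at 17519 and 5820 CPM in the deligated and 4200 and 5530 CPM in the homeostatic libraries. Its 4 values fell in the same order over the libraries as those of Klk1, with deligated replicate 1 the highest. Klk1b11 came next in the homeostatic libraries, at 3051 and 1668 CPM in the deligated and 1428 and 1732 CPM in the homeostatic libraries. Klk1b5 stood at 5216 and 987 CPM in the deligated and 1083 and 1191 CPM in the homeostatic libraries. Deligated replicate 1 was far above the other libraries, which lay close together.

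Klk1b22, the epidermal growth factor-binding member, was at 3740 and 392 CPM in the deligated and 545 and 616 CPM in the homeostatic libraries. Klk1b4 was at 1214 and 290 CPM against 487 and 579 CPM. Klk1b16, gamma-renin, was at 1214 and 161 CPM against 187 and 235 CPM. For these members the deligated libraries lay on both sides of the homeostatic ones. The remaining members were Klk1b21, between 225 and 886 CPM, Klk1b8, between 107 and 820 CPM, and Klk1b1, between 64.4 and 197 CPM over the 4 libraries.

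Deligated replicate 1 had the highest value of the 4 libraries for all 10 members in duct-like cells, a count that rests on 1 cell (4 members without it), and deligated replicate 2 had the lowest for 7. Both deligated libraries lay above both homeostatic libraries for 2 members, Klk1 and Klk1b26, and below them for 0. Of 11500 genes with at least 10 UMIs in these cells 19.9% lay above in this way and 28.8% below, so 2 of 10 above is near the share over all genes. In homeostatic libraries, neighbours in the order of levels were close: Klk1b21 (228 and 266 CPM) and Klk1b16 (187 and 235 CPM) overlapped, as did Klk1b8 (109 and 121 CPM) and Klk1b1 (112 and 107 CPM), and Klk1b22 and Klk1b4 (487 to 616 CPM). These levels are CPM and are not divided by transcript length.

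**Figure D1:**
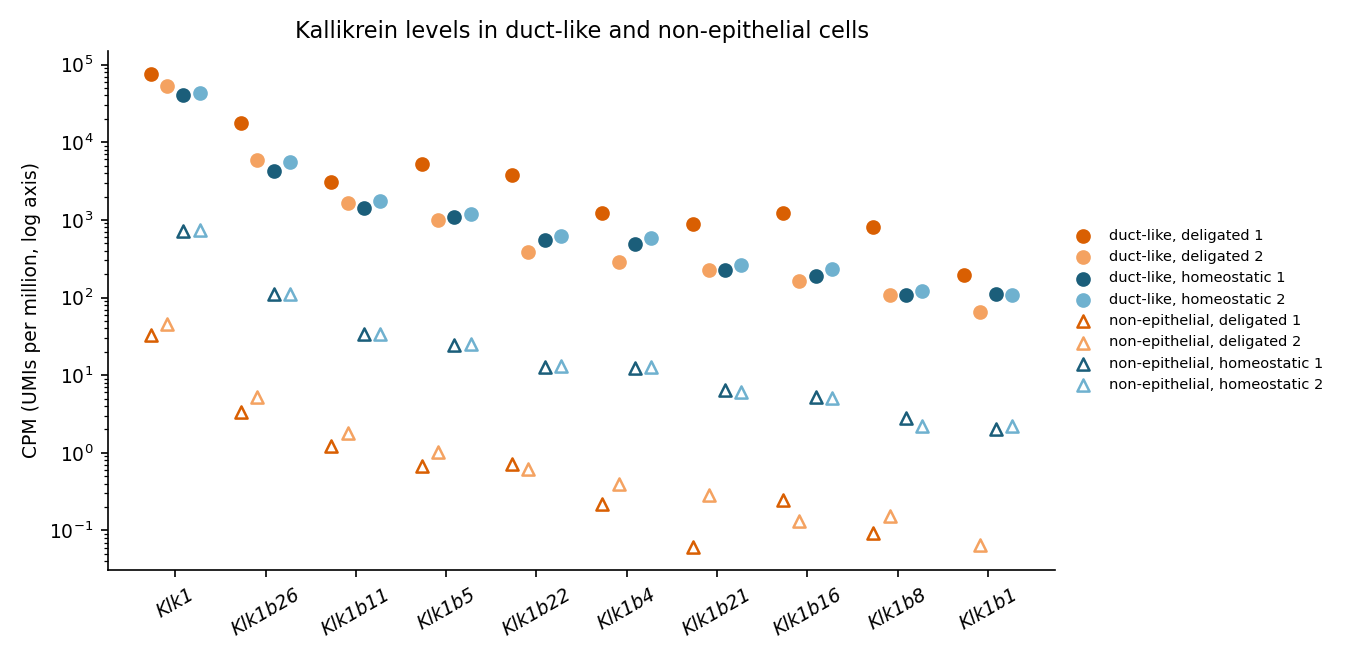
CPM (log axis) of each member in duct-like cells (filled circles) and in non-epithelial cells (open triangles), 1 point per library, with the members ordered by their homeostatic duct-like level. Klk1 leads in both populations, the homeostatic triangles lie above the deligated ones for all 10 members, and Klk1b1 in non-epithelial cells of deligated replicate 1, at 0 UMIs, is not drawn.

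The 4 duct-like clusters differed in how much kallikrein they held. In the cluster led by Wfdc2, a secreted protease inhibitor-like protein of ducts, and Crisp3, the 10 members took up 283870 and 257840 CPM in the deligated and 242770 and 258090 CPM in the homeostatic libraries, with deligated replicate 2 between the homeostatic values. Klk1 alone was at 256950 and 227570 CPM against 216300 and 215830 CPM there. The deligated values rest on 5 and 15 cells and the homeostatic values on 221 and 277. These cells made up 17.9% and 10.6% of duct-like cells in the deligated and 6.91% and 7.98% in the homeostatic libraries.

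The clusters led by Fxyd2, a subunit of the sodium-potassium pump, held less. The one led by Fxyd2 and Chchd10 had 52978 and 37610 CPM of the members in the deligated and 31043 and 28328 CPM in the homeostatic libraries. The one led by Fxyd2 and Tfcp2l1, a duct transcription factor, had 75983 and 26499 CPM against 32118 and 29488 CPM. The first value rests on 12 cells, of which 1 held 1059 of the 1362 member UMIs, and without that cell it was 24259 CPM, below both homeostatic libraries. In both, the median cell gave between 1.49% and 2.21% of its UMIs to the members in all 4 libraries. The sums lie above these medians because some cells held far more, up to 44.9% of their UMIs. Klk1 alone had a mean of 37693 CPM (SD 12302) in deligated and 23140 CPM (SD 1087) in homeostatic libraries in the Fxyd2 and Chchd10 cluster. In the Fxyd2 and Tfcp2l1 cluster these means were 25116 CPM (SD 5979) and 23534 CPM (SD 1951). Without the 1 cell, Klk1 there was at 20416 CPM in deligated replicate 1, below that homeostatic mean.

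In the cluster led by Ascl3 and Asgr1, which also had the ionocyte factor Foxi1 among its leading genes, the members stood at 9972 and 17339 CPM in the homeostatic libraries. Deligated replicate 2 had 10 such cells with 5 kallikrein UMIs in all (401 CPM, exact Poisson interval 130 to 935), all of them Klk1. Deligated replicate 1 had none of these cells. This deligated value is below both homeostatic ones and rests on 1 library.

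**Figure D2:**
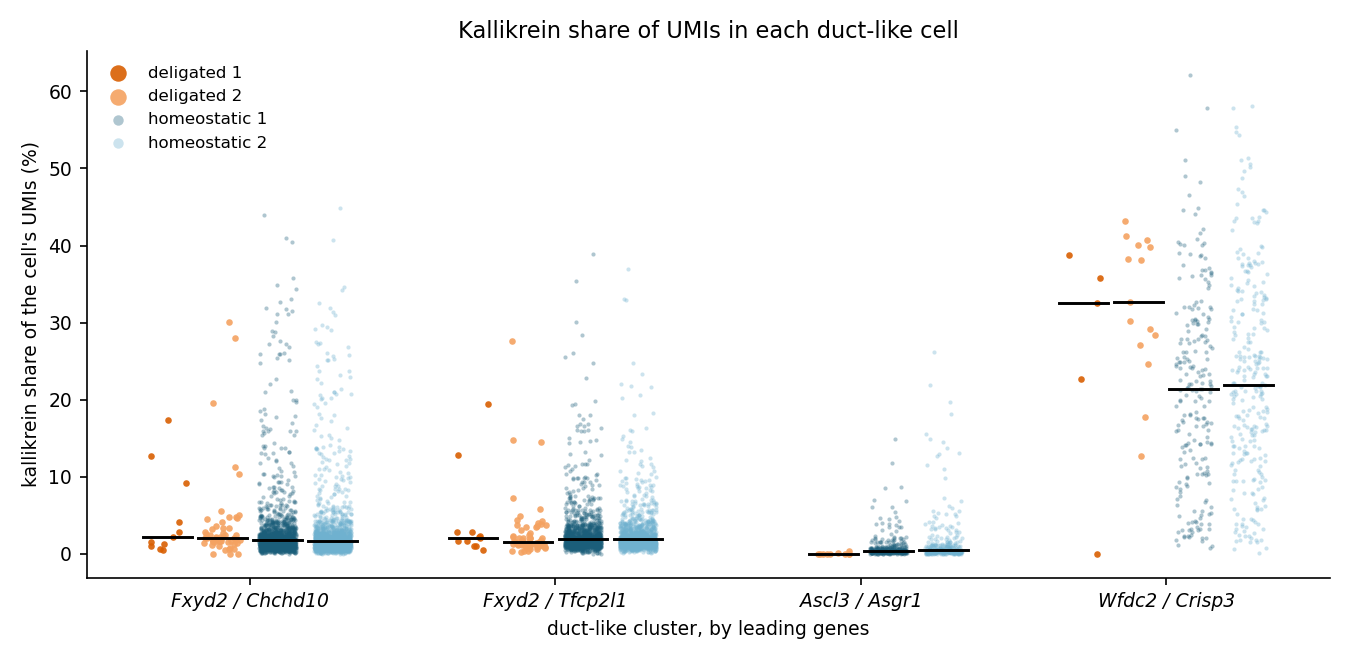
Kallikrein share of all UMIs (percent) in each duct-like cell, by cluster (leading genes on the x axis) and library, with black bars at the medians. The medians are 21.4% to 32.7% in the cluster led by Wfdc2 and Crisp3 and at most 2.21% in the other clusters.

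The design asks whether the members differ in duct-like cells between deligated and homeostatic glands. UMIs were summed per library and tested with edgeR (quasi-likelihood, adjusted p over all 8556 genes tested). Of the 10 members 0 were called, where 2.16% of the genes tested were called (0.877% lower and 1.29% higher). At an unadjusted p below 0.05 there were 5 members, and 1112 of the 8556 genes. DESeq2 called 0 members and 45 genes. The log2 fold change of Klk1 (deligated over homeostatic) was 0.12 with SE 0.90 (edgeR, adjusted p 0.976), an error too wide to show equality. Klk1b26 was at 0.66 with SE 0.52 (edgeR, adjusted p 0.647) and Klk1b22 at 0.79 with SE 0.26 (edgeR, adjusted p 0.0918). The lowest was Klk1b1 at -0.73 with SE 0.36 (edgeR, adjusted p 0.355). The median over the members was 0.20, beside -0.13 over all genes tested. These values depend on the scaling. With library totals only, in place of edgeR's TMM factors, the median of all genes was 0.22, Klk1 was at 0.63 (edgeR, adjusted p 0.168) and Klk1b5, Klk1b8, Klk1b22 and Klk1b26 were called higher, at 0.93 to 1.21. The calls over all genes split into 75 lower and 110 higher with TMM and into 54 lower and 276 higher with library totals. The errors differed between the tools. By DESeq2 the SE was 0.18 for Klk1, 0.58 for Klk1b26 and 1.04 for Klk1b22. The edgeR SE of 0.26 for Klk1b22 thus does not measure the gap between its deligated libraries, at 3740 and 392 CPM.

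One duct-like cell of deligated replicate 1, in the cluster led by Fxyd2 and Tfcp2l1, held at least 53.8% of that library's duct-like UMIs of each member other than Klk1. It had 5435 UMIs, 17.8% of all UMIs of the 28 cells, and 19.5% of them were kallikrein. It carried 417 of the 534 Klk1b26 UMIs of the library's duct-like cells (78.1%), 133 of 159 for Klk1b5, 91 of 114 for Klk1b22 and 6 of 6 for Klk1b1, but 271 of 2282 for Klk1 (11.9%). It also held 164 of the 200 UMIs of Klk1b9, an epidermal growth factor-binding kallikrein outside the 10, and 52 of the 61 of Klk1b3.

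Without this cell, a step chosen after its values were seen, Klk1 remained at 80289 CPM in deligated replicate 1, while Klk1b26 came to 4671 CPM, between the homeostatic libraries. Klk1b5 came to 1038, Klk1b22 to 918 and Klk1b16 to 519 CPM. Deligated replicate 1 was then the highest library for 4 members, Klk1, Klk1b4, Klk1b16 and Klk1b22. Both deligated libraries lay above both homeostatic ones for Klk1 alone and below them for 3 members, Klk1b1, Klk1b5 and Klk1b21. The log2 fold changes of Klk1b5, Klk1b8, Klk1b11, Klk1b16, Klk1b21, Klk1b22 and Klk1b26 then turned from positive to negative, between -0.65 and -0.34, and did not pass the threshold (edgeR, adjusted p 0.172 to 0.866). Klk1b1 had 0 UMIs left in that library and was at -1.29 (not called). Klk1b4 was then called lower, at -1.002 (edgeR, adjusted p 0.00592), although its 639 CPM in deligated replicate 1 without that cell lay above both homeostatic libraries and its 290 CPM in replicate 2 below them. Leaving out all of deligated replicate 1 and leaving out deligated replicate 2 gave log2 fold changes in opposite directions for Klk1b5, Klk1b16 and Klk1b22. Without deligated replicate 2 the median log2 fold change of all genes was -5.62. The direction of these relatives in duct-like cells thus rests on single libraries.

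Within the 10 members, Klk1 made up 82.7% and 80.6% of the UMIs in homeostatic duct-like cells, with 95% Clopper-Pearson intervals of 82.5% to 82.9% and 80.4% to 80.7%. Klk1b26 made up 8.68% and 10.4%, Klk1b11 2.95% and 3.24%, and Klk1b5 2.24% and 2.23%. Klk1b22 and Klk1b4 were each near 1%, at 1.13% and 1.15% and at 1.01% and 1.08%. Klk1b1 and Klk1b8 were the smallest, between 0.200% and 0.232%. In the deligated libraries Klk1 took 68.9% and 84.6%, and without the cell named above 89.2% in replicate 1. Divided by the number of unique words at the transcript ends, the homeostatic share of Klk1 was 83.4% in place of 81.6% as the mean of the libraries.

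The relative levels varied from cell to cell. Of duct-like cells with at least 30 UMIs over the members (62 deligated and 2173 homeostatic), Klk1 held under 50% in 133 homeostatic (6.12%) and 5 deligated cells (1 and 4 per library). The split used Klk1 and the other members, so their values are a description. In these 133 cells Klk1b26 stood at 30272 CPM and Klk1 at 24942 CPM. In the 706 homeostatic cells with a Klk1 share of at least 90%, Klk1b26 was at 2661 and Klk1 at 125510 CPM. The boundaries were set after the values were seen, and 99 cells lie within 5 percentage points of 50%, so the groups are ranges along a gradient and not cell types.

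Egf, which did not enter this split, was at 81.5 CPM (49.1 to 127) in the lowest range, 95.1 and 26.4 CPM in the middle ranges and 13.1 CPM (7.36 to 21.7) in the highest. Per library the lowest range had 75.2 and 86.8 CPM and the highest 10.7 and 15.5 CPM. Klk1b9 stood at 9120 CPM in the lowest and 1872 CPM in the highest range, and Klk1b3 at 2183 and 349 CPM. The 5 deligated cells with under 50% Klk1 held 1 Egf UMI. Ren1 had 0 UMIs in the lowest range. Median UMIs per cell were 1267 in the lowest, 1602 and 1597 in the middle and 1337 in the highest range, and the median kallikrein share of all UMIs was 4.78% in the lowest and 10.4% in the highest.

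**Figure D3:**
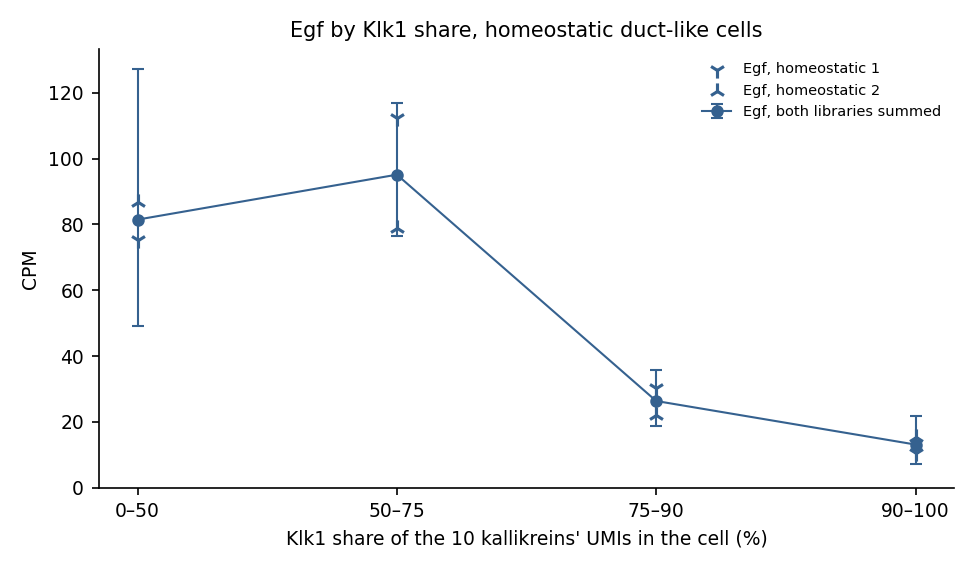
Egf (CPM) in homeostatic duct-like cells with at least 30 member UMIs, by the share of those UMIs that is Klk1 (percent); circles are both libraries summed with exact Poisson 95% intervals, and the Y-shaped marks are the single libraries. Egf is at 81.5 and 95.1 CPM in the lower ranges and at 26.4 and 13.1 CPM in the higher ones.

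Outside the epithelium, kallikrein UMIs were found in cells of every class in the homeostatic libraries. Such UMIs can be RNA set free from other cells and caught in the droplet, which these counts do not separate from RNA of the cell itself. Klk1 stood at 723 and 730 CPM over 6994 and 6989 homeostatic non-epithelial cells, against 32.7 and 45.5 CPM over 4301 and 7662 deligated ones. Klk1b26 was at 112 and 111 CPM against 3.32 and 5.17 CPM. The deligated libraries lay below the homeostatic ones, without overlap, for all 10 members, as they did for 38.9% of 18609 genes with at least 10 UMIs in these cells, while 37.3% lay above. Klk1b1, the least abundant, was at 2.01 and 2.20 CPM in the homeostatic libraries, 0.0655 CPM (3 UMIs) in deligated replicate 2 and had 0 UMIs in replicate 1, where the floor used here for a count of 0 (3 UMIs) is 0.0932 CPM.

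Duct-like cells held more than these cells in each library. Summed over the members, the ratio of duct-like to non-epithelial CPM was 51.8 and 56.7 in the homeostatic and 2772 and 1146 in the deligated libraries. For Klk1 alone it was 55.3 and 58.9 against 2292 and 1175, and for Klk1b26 37.6 and 50.0 against 5269 and 1125. Of the Klk1b26 UMIs behind the ratio in deligated replicate 1, 417 of 534 came from the single cell named above, without which the duct-like level there was 4671 in place of 17519 CPM. The summed ratio was 1748 in deligated replicate 1 without the mitochondrial limit and 604 in replicate 2 with doublets kept, a setting that gave 32.1 and 33.0 in the homeostatic libraries. The members' summed level in the non-epithelial cells was 935 and 942 CPM in the homeostatic and 39.2 and 55.2 CPM in the deligated libraries. In deligated replicate 1, 1 unnamed cell gave 250 of the 1262 member UMIs behind this level. For Klk1 the highest count in a cell was 229 of 1051 UMIs there.

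By cell, 87.7% and 88.6% of homeostatic non-epithelial cells had at least 1 member UMI, against 6.81% and 12.7% of deligated ones, at median depths of 3949.5 and 3916 UMIs against 6036 and 5220. After thinning each cell to 1000 UMIs the shares were 45.6% and 47.1% against 1.84% and 3.12%, while 99.1% of thinned homeostatic duct-like cells had a member UMI in each library. In the deligated libraries 10 of 10 and 92.1% of 63 thinned duct-like cells had one. The thinned values leave out the 51, 99, 672 and 711 shallower non-epithelial cells (deligated, then homeostatic libraries). Of the duct-like cells they leave out 18 of 28 and 78 of 141 deligated and 1717 of 3200 and 1893 of 3471 homeostatic cells. In the 10 classes with at least 20 cells in each homeostatic library, the median was 2 to 3 member UMIs per cell, and 82.7% to 92.6% of cells had one. In the deligated libraries the median was 0 in every such class. In endothelial-like, T cell-like, NK/innate lymphoid-like and fibroblast-like cells the homeostatic share lay between 85.7% and 90.8%.

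**Figure D4:**
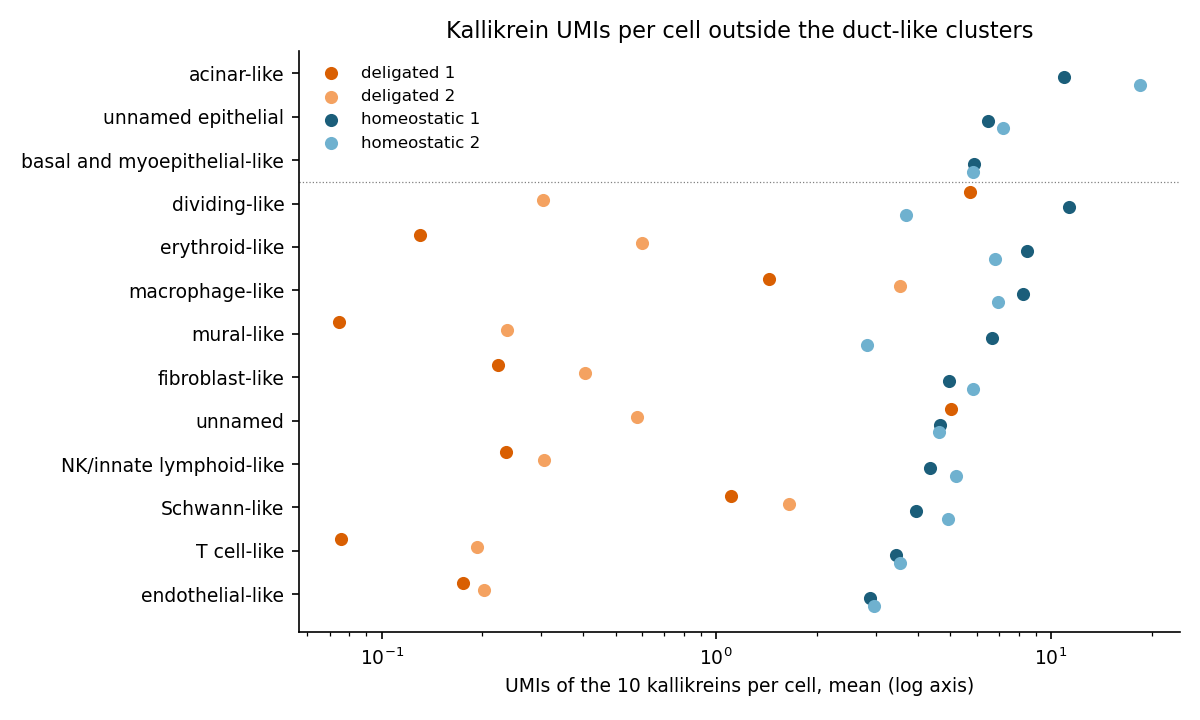
Mean UMIs of the 10 members per cell (log axis) in each class outside the duct-like clusters, 1 point per library with at least 20 cells; epithelial classes are above the dotted line. The homeostatic points lie between 2.83 and 11.3 below that line, and the deligated points there lie below 1 except in Schwann-like cells (1.11 and 1.65), macrophage-like cells (1.44 and 3.53) and, for deligated replicate 1, dividing-like (5.73) and unnamed cells (5.02).

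Means ran higher than medians where single cells held many kallikrein UMIs. Macrophage-like cells had 8.28 and 6.92 member UMIs per cell in the homeostatic and 1.44 and 3.53 in the deligated libraries, with up to 444 in a cell. Dividing-like cells of deligated replicate 1 had a mean of 5.73 over 33 cells. Unnamed cells of that library had a mean of 5.02, of which 1 cell gave 250 of 256 UMIs. Endothelial-like cells, the most numerous class, had 2.88 and 2.96 per cell in the homeostatic and 0.175 and 0.202 in the deligated libraries.

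The paralogue shares in non-epithelial cells were near those of duct-like cells but not equal to them. Klk1 made up 77.3% and 77.5% of member UMIs in homeostatic non-epithelial cells (intervals 76.9% to 77.8% and 77.0% to 78.0%), below the 82.7% and 80.6% of the duct-like cells of the same libraries. Klk1b26 made up 12.0% and 11.7%, above the 8.68% and 10.4% there. In the homeostatic libraries the 4 most abundant members came in the order Klk1, Klk1b26, Klk1b11, Klk1b5 in both populations. Over homeostatic classes with at least 20 cells, the Klk1 share ran from 72.2% to 81.5%. In the deligated libraries Klk1 made up 83.3% and 82.5% of the members in non-epithelial cells.

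Salivary products of another origin moved the same way in these cells. Acinar products, a list of 11 genes in the matrices that includes the mucin-like Mucl2, summed to 8954 and 8453 CPM in homeostatic and 186 and 254 CPM in deligated non-epithelial cells, with Smr3a at 0 in 1 library of each group. Mucl2 alone was at 7396 and 7243 CPM against 149 and 210 CPM. A list of 14 duct markers summed to 458 and 483 CPM against 24.5 and 48.9 CPM in the same cells. Ren1 was at 0 in both homeostatic libraries and in deligated replicate 1, where Cftr, Scnn1b and Scnn1g were at 0 too. Fxyd2 alone was at 397 and 420 CPM against 11.7 and 29.9 CPM. The 2 sums thus speak mostly for Mucl2 and Fxyd2. Scnn1a moved little, at 1.11 and 0.894 CPM against 0.870 and 0.677 CPM. The share of duct-like cells, 30.1% and 31.8% against 0.643% and 1.80%, moved along with them. Their part in the kallikrein difference was not tested.

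In edgeR tests of summed UMIs over all retained cells, all 10 members were lower in the deligated libraries, where 29.7% of the 16724 genes tested were lower and 53.3% were called in either direction. The log2 fold change was -4.88 with SE 0.49 for Klk1 (edgeR, adjusted p 0.00122) and -4.76 with SE 0.26 for Klk1b26 (edgeR, adjusted p 0.000245). The members ran from -5.73 for Klk1b1 to -4.41 for Klk1b8 with a median of -4.86, beside 0.01 over all genes. This comparison holds the change in the number of duct-like cells.

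In endothelial-like cells, Klk1 stood at 19.9 and 30.6 CPM in the deligated and 552 and 574 CPM in the homeostatic libraries, with no overlap. Its log2 fold change was -4.46 with SE 0.19 (edgeR, adjusted p 5.8e-05). All 10 members were tested and all 10 were lower, where 22.2% of genes were lower and 35% were called in either direction, with log2 fold changes from -5.90 to -4.46 and a median of -5.06 beside -0.00 over all genes. Klk1b26 was at 1.80 and 4.23 CPM against 87.0 and 91.6 CPM, a log2 fold change of -4.84 with SE 0.25 (edgeR, adjusted p 0.000121).

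Klk1 was called lower in 3 other classes too, and differences between the classes were not tested. In NK/innate lymphoid-like cells Klk1 was at 22.4 and 41.2 CPM against 491 and 587 CPM (a log2 difference of -3.95 with SE 0.23 by edgeR, adjusted p 7.38e-06). In T cell-like cells it was at 11.3 and 31.2 CPM against 438 and 475 CPM (-4.25 with SE 0.35 by edgeR, adjusted p 0.000145), and in fibroblast-like cells at 13.7 and 40.2 CPM against 581 and 677 CPM (-4.47 with SE 0.37 by edgeR, adjusted p 4.7e-05). The number of members with enough UMIs to be tested was 9, 5 and 7 in these classes, and each of those was lower. Of all genes tested there, 26.7%, 14.7% and 16.9% were lower, 16.7%, 5.54% and 7.69% were higher, and 43.5%, 20.3% and 24.6% were called in either direction. A scarce member passes the filter on its homeostatic UMIs alone, so these counts only account for the members. Not tested were Klk1b1 in all 3 classes, Klk1b8 and Klk1b21 in T cell-like and fibroblast-like cells, and Klk1b4 and Klk1b16 in T cell-like cells.

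**Figure D5:**
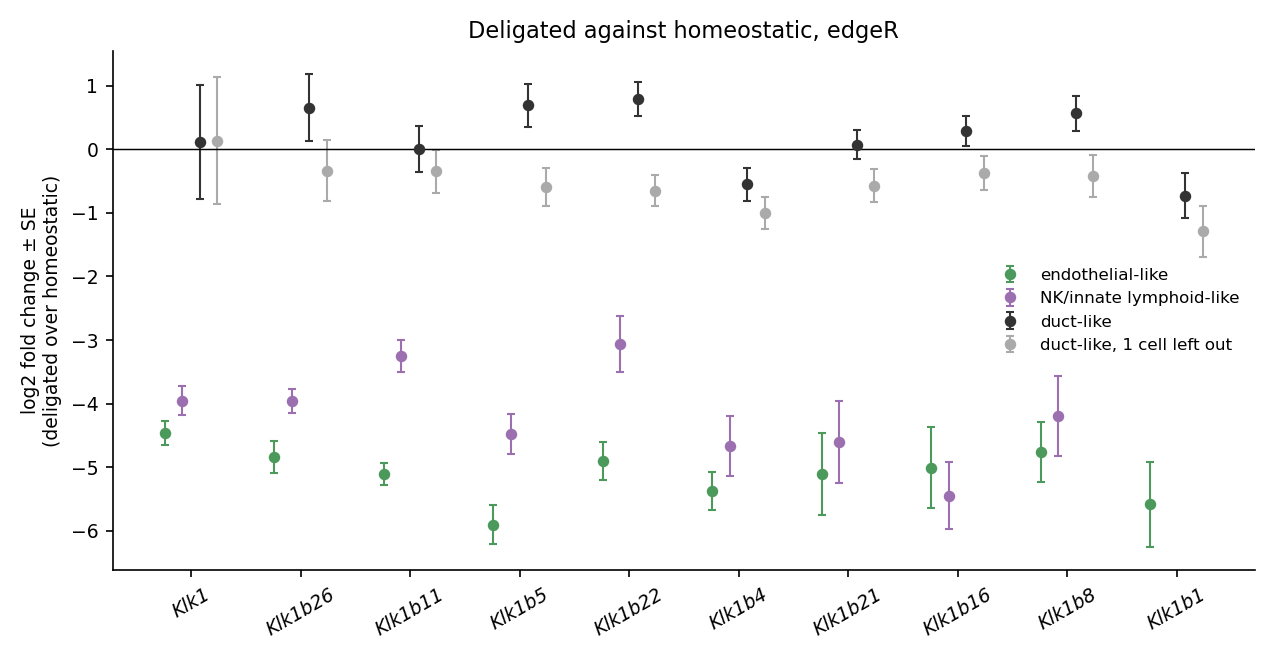
Log2 fold change (deligated over homeostatic, edgeR) of each member with its SE, in endothelial-like, NK/innate lymphoid-like and duct-like cells, and in duct-like cells without 1 cell of deligated replicate 1. Values lie between -5.90 and -3.06 in the non-epithelial classes shown and between -1.29 and 0.79 in duct-like cells, where leaving out 1 cell moves 7 members from above to below 0.

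Of 16 other kallikrein genes in the matrices, 6 had enough UMIs over all retained cells to be tested. Klk1b9, Klk1b27, Klk1b24, Klk1b3 and Klk10 were lower and Klk8 was higher in the deligated libraries, where 29.7% of all genes tested were lower and 23.6% higher. In duct-like cells 4 could be tested and 0 passed the threshold. An unadjusted p below 0.05 was found for 2 of them, and for 1112 of the 8556 genes tested there. Klk1b24 was at -1.12 with SE 0.35 (edgeR, adjusted p 0.0594) and Klk1b27 at -0.79 with SE 0.25 (edgeR, adjusted p 0.0703). Klk1b9 stood at 6561 and 1829 CPM in deligated and 2256 and 2400 CPM in homeostatic duct-like cells. Of its 200 UMIs in deligated replicate 1, 164 came from the single cell named above. Without that cell Klk1b3 was called lower, at -1.31 with SE 0.26 (edgeR, adjusted p 8.38e-05), in place of -0.10 with SE 0.25 with it. Klk1b27 was then called lower too, at -0.93 with SE 0.25 (edgeR, adjusted p 0.0116).

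Genes of the kallikrein-kinin pathway were looked up in the same cells. Of 12 listed genes 7 could be tested over all retained cells, of which 0 were lower and 4 higher in the deligated libraries, where 23.6% of genes were higher: Mme and Ace, peptidases that break down kinins, Cpe, a carboxypeptidase, and F2rl1, a protease-activated receptor. This comparison holds the change in the makeup of the cells as well: Cpe, at 2.06 over all cells, was at 0.18 in endothelial-like (edgeR, adjusted p 0.589) and 0.53 in fibroblast-like cells (edgeR, adjusted p 0.0251), and Mme, at 0.71 over all cells, was at 0.01 in fibroblast-like cells (edgeR, adjusted p 0.962). The kinin receptor Bdkrb2 was at 4.41 and 2.40 CPM in deligated and 4.32 and 4.34 CPM in homeostatic non-epithelial cells and did not pass the threshold over all cells (-0.16 with SE 0.31 by edgeR, adjusted p 0.69). Bdkrb1, the inducible receptor, had 1 to 4 UMIs per library. In endothelial-like cells, of 7 tested, Mme and Cpm were lower and 0 were higher, where 22.2% of all genes were lower. DESeq2 called neither of them (adjusted p 0.140 for Mme and 0.102 for Cpm), and it called Ace higher there (0.53, adjusted p 0.0229), which edgeR did not (adjusted p 0.0839). In fibroblast-like cells, of 3 tested, Cpe and Ace were higher and 0 were lower, where 7.69% of all genes were higher, and DESeq2 did not call Cpe (adjusted p 0.0641). F2rl1 was higher in NK/innate lymphoid-like cells. In duct-like cells 2 genes of the list, Cpe and Mme, could be tested and 0 passed. Both had an unadjusted p below 0.05, as did 1112 of the 8556 genes tested there.

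Egf was lower over all retained cells, at -2.83 with SE 0.22 (edgeR, adjusted p 0.000558). In duct-like cells it was at -1.75 with SE 0.90 (edgeR, adjusted p 0.394). The 1 Egf UMI of deligated replicate 1 there came from the single cell named above. Without that cell Egf was at -2.70 with SE 1.1 (edgeR, adjusted p 0.2265). Of the acinar products 7 of the 9 tested were lower in duct-like cells, where 0.877% of all genes tested were lower, Mucl2 among them at -4.99 with SE 0.84 (edgeR, adjusted p 4.78e-07), in the same cells in which 0 members were called. Mucl2 stood at 295 and 1963 CPM in deligated and 33984 and 30411 CPM in homeostatic duct-like cells. It was found outside the epithelium too, at 149 and 210 CPM in deligated and 7396 and 7243 CPM in homeostatic non-epithelial cells. In endothelial-like cells its log2 fold change was -5.95 with SE 0.44. Acinar UMIs in duct-like cells can be free RNA, which these counts do not separate.

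Over 26 clusters with at least 50 homeostatic cells, the genes whose log CPM followed the summed members most closely were Crisp3 (Pearson r 0.98), Wfdc2 (0.97), Scgb1c1 (0.95), Fxyd2 (0.95) and Apoc1 (0.94). The same 5 genes came first for Klk1, Klk1b26 and Klk1b11 taken alone. Between pairs of members r ran from 0.79 to 0.99 over the same clusters. The clusters share libraries and free RNA, and r is given as a description.

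The members followed each other across clusters, so the bases before their starts were read from RefSeq (GRCm38.p6). All 10 matched a 300-base window, 250 bases before to 50 after the start. The hexamer TTTAAA, a variant of the TATA box and its own reverse complement, occurred in 9 of the 10 windows (in Klk1b21 it lies after the start) and in 13.16% of 32851 windows of this length. The window of Klk1, the one without it, ends with the bases that come right before the hexamer in Klk1b21, so nothing is read from its absence there. TGTTCT on either strand, the core hexamer of some steroid hormone response elements, occurred in 0 of the 10 and in 18.97% of all windows. The windows of the other members were 48.0% to 83.4% identical to that of Klk1b26. As windows of near-copies they are not independent, so both counts are descriptions. The 120 bases before the start are printed for 3 of the 4 members whose starts are the same base in RefSeq and GENCODE, with TTTAAA in capitals.
Klk1: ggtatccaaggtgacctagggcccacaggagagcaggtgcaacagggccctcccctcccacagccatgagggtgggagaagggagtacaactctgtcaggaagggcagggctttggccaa
Klk1b11: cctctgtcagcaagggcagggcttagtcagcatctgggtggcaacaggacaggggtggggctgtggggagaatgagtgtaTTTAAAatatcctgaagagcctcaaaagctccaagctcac
Klk1b1: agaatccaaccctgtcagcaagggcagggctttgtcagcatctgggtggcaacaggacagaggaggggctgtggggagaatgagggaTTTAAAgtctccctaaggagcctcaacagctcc

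These stretches are chr7:44225240-44225359, chr7:43995757-43995876 and chr7:43966631-43966750 on the plus strand. TTTAAA begins 40 bases before the start of Klk1b11 and 33 before that of Klk1b1, the next most abundant member after Klk1b26 and one of the least abundant in homeostatic duct-like cells. A match is a string of letters in this window and was not tied to any measured binding.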

How the data were processed

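The deposited matrices hold raw UMI counts per gene and barcode, made with Cell Ranger 6.0.1 (deligated) or 7.0.0 (homeostatic) per the file headers, on mm10 per the submitters' processing notes; whether intronic reads were counted is not given in the sources used here. The default for intronic reads differs between these versions and so runs along the comparison of the groups; its part was not tested. Cells with at least 300 genes and at most 10% mitochondrial UMIs were kept, and simulated-doublet scores removed 0.8% of cells per 1000. Clustering (scanpy 1.11.5) used 3000 variable genes without kallikreins, 30 components, 20 neighbours and Leiden resolution 1.0, without batch correction. A cluster took a name from at least 3 markers found in 10% of its cells at 2.0-fold over the rest; these scoring details were set with clusters in view. Summed counts per library were tested with edgeR 4.0.16 (quasi-likelihood, TMM, filterByExpr, Benjamini-Hochberg, threshold 0.05) in classes of at least 100 cells per library (duct-like 20), and with DESeq2 1.42.0 as an alternative; the SE is the fold change over the square root of F. A permutation test of 2 against 2 libraries cannot go below p 0.333 and was not used. The tests were tried on simulated counts. Duct-like against other cells and paralogue shares are descriptions. The members, gene lists and tests were chosen with earlier results of these data known. Named genes are the members, other kallikreins, granular products, kinin genes, acinar products and the 5 most alike genes. Genes named outside these groups lead a cluster. Results on 1 listed gene are not reported here.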

Additional observations from a re-analysis of the deposited data

How the results depend on the processing

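Under the alternatives run, the members called lower were 10 over all retained cells and in endothelial-like cells, 5 to 9 for fibroblast-like cells, 4 to 6 for T cell-like cells and 9 to 10 for NK/innate lymphoid-like cells; the number tested moved too. In duct-like cells the count of called members, 0, became 4 with library totals only and 1 without the single cell of deligated replicate 1. Library totals also moved the median of all genes from -0.13 to 0.22. Fits with 1 library left out assume that the lone library varies like the others, so effect sizes alone are given for these cells. Without deligated replicate 2 the median of all genes fell to -5.62. With 1 library left out, the log2 fold changes ran from -1.13 to 0.12 for Klk1b1, -1.24 to 0.46 for Klk1b4, -0.56 to 1.47 for Klk1b5, -0.46 to 2.11 for Klk1b8, -0.28 to 0.40 for Klk1b11, -0.75 to 1.79 for Klk1b16, -0.49 to 1.11 for Klk1b21, -0.93 to 1.96 for Klk1b22 and -0.10 to 1.13 for Klk1b26. Without the single cell they were -1.29 for Klk1b1, -0.59 for Klk1b5, -0.42 for Klk1b8, -0.35 for Klk1b11, -0.38 for Klk1b16, -0.57 for Klk1b21, -0.65 for Klk1b22 and -0.34 for Klk1b26. Without the low-count filter Klk1b11 was at -0.13 and Klk1b21 at -0.074, without the mitochondrial limit Klk1 was at -0.078 and Klk1b11 at -0.19, and with doublets kept Klk1b11 was at -0.12; the cause was not tested. In duct-like cells the scaling, filter, DESeq2, block and single-cell alternatives were added after seeing the data.

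Group means outside 1 SD of the reported ones were the homeostatic duct-like level (58162 CPM with at least 1000 UMIs per cell), the duct-like level as a median over cells (20118 CPM deligated and 17974 CPM homeostatic, with deligated replicate 2 between the homeostatic libraries, added after seeing the data), the homeostatic ratio of duct-like to non-epithelial cells (31.7 as a median over cells, 50.3 without the mitochondrial limit, 32.5 with doublets kept), and shares. Per unique base the Klk1 share was 83.4% in homeostatic duct-like cells and 84.6% and 79.5% in deligated and homeostatic non-epithelial cells, and the Klk1b26 share in the latter was 7.87% and 10.5%. With at least 1000 UMIs the Klk1 share in non-epithelial cells was 82.2% and 77.1%. With doublets kept, the homeostatic shares there were 76.4% for Klk1 and 12.2% for Klk1b26. Without the single cell the deligated Klk1b26 share in duct-like cells was 7.20%, and with 1 library left out it was 9.21% to 16.1%. No ratio of medians exists for the deligated libraries, whose non-epithelial median is 0. The mural-like class was not tested, with 81 cells in homeostatic replicate 2, and with at least 1000 UMIs deligated replicate 1 keeps 10 duct-like cells.

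The labels do not say that replicate numbers pair libraries. With the replicate number as a block, the members called stayed at 10 over all cells and in endothelial-like cells, 9, 5 and 7 in the other classes and 0 in duct-like cells, where calls over all genes went from 185 to 62. The correlation of same-numbered deviations was 0.0065 over all cells, -0.0075 in duct-like cells and -0.149 to -0.103 in the other classes. With crossed numbers, added after seeing the data, calls over all genes were 8481 over all cells, 4853 in endothelial-like and 70 in duct-like cells.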

Other observations

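Klk8, a kallikrein-related protease outside the 10 members and outside the expanded mouse cluster, was distributed differently. Its UMIs in duct-like cells numbered 0 and 5 for the deligated pair and 5 and 3 for the homeostatic pair. In non-epithelial cells it stood at 41.5 and 53.7 CPM in the deligated and 36.7 and 40.1 CPM in the homeostatic libraries, whereas the members were lower in the deligated libraries in the same cells. Over all retained cells its log2 fold change was 0.51 with SE 0.14 (edgeR, adjusted p 0.0299), whereas in endothelial-like cells it was -0.44 with SE 0.09 (edgeR, adjusted p 0.0118), a call that DESeq2 did not make (-0.44, adjusted p 0.0562). Klk8 is named because it was the single tested kallikrein with a higher level over all cells.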
